A study of Mus musculus with 8 samples.

Results

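Transcripts of the constitutive proteasome were compared between CD8+ T cells of wild type mice and of mice without ASC, and none of its measured genes passed the test over all probes, although most were slightly lower in the knockout. The members were all probes whose platform symbol begins with Psma, Psmb, Psmc, Psmd or Psme and a number, leaving out the inducible catalytic subunits Psmb8, Psmb9 and Psmb10. This took 59 of the 25697 probes, for 39 of the 16593 genes named on the array. Of these, 56 probes of 37 genes belong to the proteasome itself, counting the cap assembly chaperones Psmd5, Psmd9 and Psmd10. The other 3 probes belong to Psmc3ip and Psme3ip1, which share the letters but encode interaction partners, so they are given apart.

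The proteasome is the protease that degrades proteins tagged with ubiquitin. Its barrel-shaped core is built of alpha subunits (Psma genes), which gate the entrance, and beta subunits (Psmb genes), which include the catalytic sites. A cap of ATPases (Psmc genes) and other proteins (Psmd genes) binds, unfolds and feeds ubiquitinated substrates, and activators (Psme genes) can open the core in its place. Interferon gamma can induce other catalytic subunits and the activator of Psme1 and Psme2, which changes the peptides offered to CD8+ T cells on class I molecules.

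The study, whose title concerns the role of ASC in differentiation of cytotoxic T cells and in transplantation, measured RNA of CD8+ T cells from C57BL/6 mice on single-colour Illumina bead arrays, with 4 wild type samples and 4 samples that lack ASC, the inflammasome adaptor encoded by Pycard. The sources used here do not give stimulation, age, pooling of animals or the origin of the knockout, and they name no batch. Whether replicates are separate animals is not stated either, so every p-value rests on variation among these arrays alone, some of which may be technical.

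Pycard signal averaged 500.1 ± 19.05 over the wild type arrays, with detection on all 4, and 121.5 ± 2.57 over the knockout arrays, with detection on 0 of 4 (SD), at least 12.7-fold lower (limma adjusted p = 1.15e-09). That bound is on the background-corrected, normalized log2 scale, where the groups averaged 8.56 and 4.46, and sets each knockout array at its lowest detected value. The T cell genes Cd3d, Cd3e, Cd3g and Cd247 and the CD8 beta chain gene Cd8b1 were detected on every array, and Cd8b1 averaged a signal of 29803 ± 1807 in the wild type group against 26830 ± 1524 among knockout arrays (SD, n = 4 each), while the Cd8a probe was not detected on any array. The mean signal of an array was 518.5 to 581.6 for wild type samples and 498.7 to 520.8 for knockout samples (exact permutation p = 0.0571, n = 4 each), and 78.5% of tested probes had the lower mean signal in the knockout. Log2 values were therefore compared after quantile normalization, in which every array has the same distribution. Of 11270 tested probes, 95 passed limma's adjusted p of 0.05, or 0.843%, with 51.6% of them higher in the knockout. Scaling each array to its median over all probes gave 33.0% higher.

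Of the 56 proteasome probes, 51 probes of 36 genes were detected on at least 4 of the 8 arrays and tested. The untested ones were the only Psma1 probe, detected on 1 of 8 arrays at signals from 117.4 to 132.0, and further probes of Psma3, Psmd5, Psmd11 and Psme4, detected on none. For each gene the brightest tested probe stands below unless another is named. For 35 of the 36 genes that probe was detected on all 8 arrays.

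By limma's adjusted p, 0 of the 51 probes were higher and 0 lower in the knockout, beside 0.435% and 0.408% of all tested probes. At an unadjusted limma p under 0.05, 10 probes were lower, or 19.6%, and 0 were higher, where all tested probes gave 6.39% and 6.62%. These 10 belonged to Psmb5, Psma7, Psmb2, Psmd1, Psmd7, Psme1 and Psme2. Leaving out wild type replicate 1 or knockout replicate 1 or 3 left 6 such probes, where 5.40%, 6.95% and 5.66% of all tested probes were lower in this way. Leaving out wild type replicate 2 left 5, beside 5.43% of all tested probes. In RNA from whole samples, fewer cells of a type and less RNA per cell cannot be told apart. The call depended on the variance and background model, and Psmb5 and Psme1 passed as lower in 4 of the alternatives. These were without background correction (limma adjusted p = 0.0122 and 0.0200), with a larger background offset of 50 (0.0351 and 0.0474), in the authors' value table (0.0122 and 0.0200) and with a trended, robust variance (0.0106 and 0.00598). The value table repeats the signals without background correction, so it is not independent of the first of these. Over all alternatives the adjusted p ran from 0.0106 to 0.228 for Psmb5 and from 0.00598 to 0.283 for Psme1, and neither passed with any array left out.

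By gene, 30 of 36 differences lay below 0 (by probe 43 of 51, or 84.3%), where 51.7% of all tested probes did. The median log2 difference, knockout minus wild type, was -0.05 over the 36 genes and -0.0068 over all tested probes. It was -0.06 in the core, -0.03 in the cap and -0.12 among the 4 activator genes. Without wild type replicate 3 the medians were -0.08 over all genes, -0.09 in the core and -0.08 in the cap. The cap median was also -0.07 without knockout replicate 4, -0.05 without wild type replicate 1 or 4 or knockout replicate 1, and -0.01 without wild type replicate 2. With the mean of a gene's tested probes in place of the brightest it was -0.06. All 51 probes had the lower mean signal in the knockout, with a median ratio of 86.9% against 94.99% over all tested probes. These ratios are of signals without background correction. They do not compare like probes, since the median log2 level was 10.46 for the 51 and 7.63 for all tested probes. Most of the 36 probes at which genes stand were bright: 27 lay among the 2818 brightest tested probes. There, 88.0% of probes had the lower knockout signal and the median log2 difference was -0.0053. The 27 had a median of -0.06, and 25 were below 0.

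**Figure D1:**
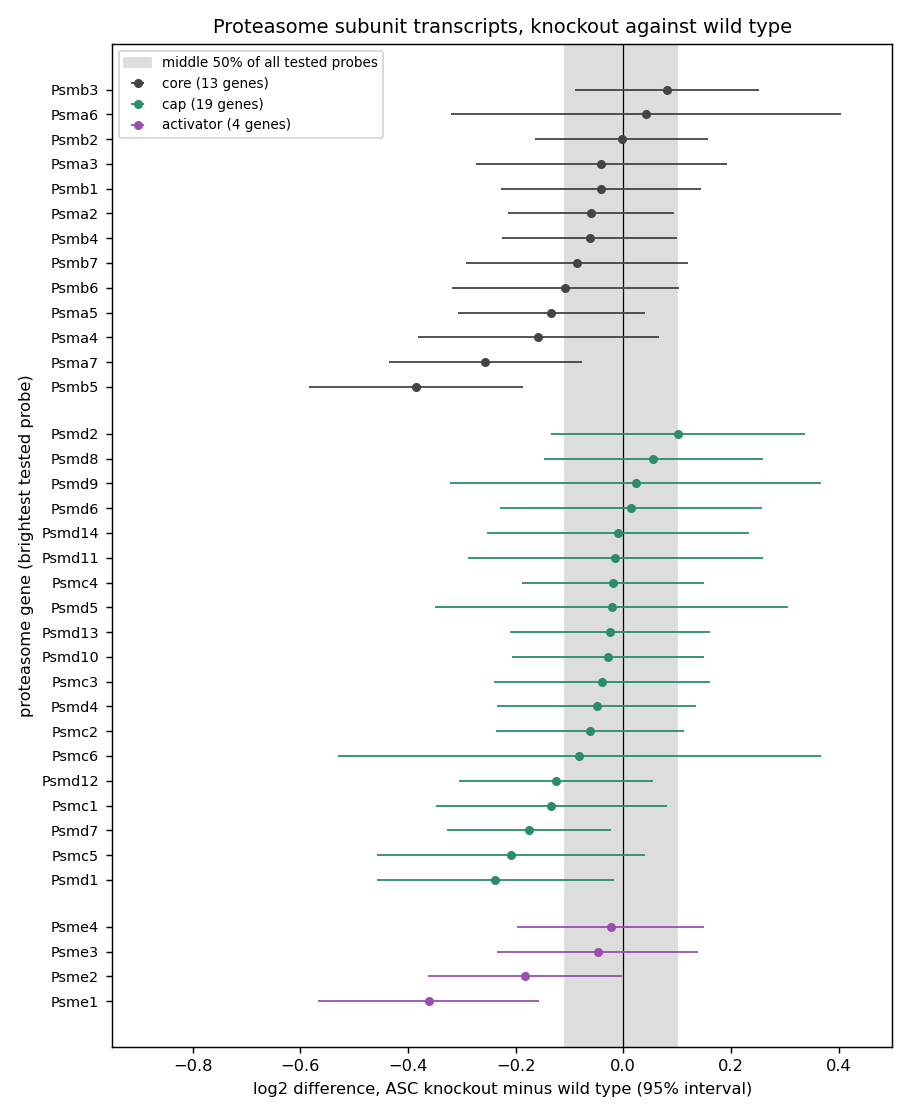
Log2 difference between ASC knockout and wild type for the brightest tested probe of each of 36 genes, with 95% intervals from limma (n = 4 each) and the middle 50% of all tested probes in grey (25 to 75%). Psmb5 at -0.38 and Psme1 at -0.36 lie farthest from 0, and Psmb3 and Psmd2 are the highest of their classes at 0.08 and 0.10.

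Among the beta subunits, Psmb5, the chymotrypsin-like catalytic subunit, had the largest difference of the core. Its signal on wild type arrays 1 to 4 was 1835.5, 1649, 1416 and 1561, and on knockout arrays 1 to 4 it was 1193, 1089, 1063 and 1286. Every knockout array lay below every wild type array. The log2 difference was -0.38 ± 0.0892 (SE, n = 4 each, 95% interval -0.58 to -0.19), a ratio of 0.766, with a limma adjusted p of 0.0993. It ranged from -0.44 to -0.33 over fits that omitted an array. The Psmb5 promoter, from 250 bases before to 50 after the gene's start, is shown because this gene stands farthest from 0 and holds the letters TGACNNNGC of the antioxidant response element core, which are in capitals (bases 204 to 212). It lies on GRCm38.p6 at chr14:54617946-54618245, minus strand.
Psmb5 promoter: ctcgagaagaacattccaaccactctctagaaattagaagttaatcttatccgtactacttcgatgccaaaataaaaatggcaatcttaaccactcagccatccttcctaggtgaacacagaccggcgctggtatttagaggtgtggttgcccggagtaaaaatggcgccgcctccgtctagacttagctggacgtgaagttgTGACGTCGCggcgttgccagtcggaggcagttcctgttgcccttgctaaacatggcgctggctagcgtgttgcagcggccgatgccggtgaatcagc

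The other constitutive catalytic subunits stood closer to 0. Psmb6, the caspase-like one, gave signals of 5157, 4546, 4180.1 and 4337 in wild type and 3916, 3506, 3525 and 4476 in the knockout. Its log2 difference was -0.11 ± 0.0947, and the groups overlapped through knockout replicate 4. It was -0.18 without that array and -0.06 without knockout replicate 3. Psmb7, the trypsin-like one, was at -0.09 ± 0.0925, and its other probes at -0.02 and -0.11. At the brightest Psmb7 probe the difference was -0.02 without wild type replicate 1, -0.14 without wild type replicate 3 and -0.06 without knockout replicate 2. The structural subunits Psmb1, Psmb2, Psmb3 and Psmb4 were at -0.04, -0.0032, 0.08 and -0.06. A dim Psmb2 probe stood at -0.34 ± 0.123 (limma adjusted p = 0.262), while the 2 bright Psmb2 probes were at -0.0032 and -0.07, so the Psmb2 probes disagree in size.

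Of the alpha subunits, which form the gated outer rings, 5 of 6 measured genes were below 0. Psma7 signals were 4783, 4323, 3566.5 and 4246 in wild type and 3387, 2887, 3193 and 3413.5 in the knockout, so that the groups did not overlap. Its log2 difference was -0.26 ± 0.0805 (SE, n = 4 each, limma adjusted p = 0.204), and a second Psma7 probe was at -0.20 ± 0.0879 with overlapping groups. Wild type replicate 3 was the lowest wild type array at both probes. Psma4 and Psma5 were at -0.16 ± 0.101 and -0.13 ± 0.0780, and the groups of Psma5 and of Psma2 (-0.06) did not overlap either. Without knockout replicate 3, Psma4 was at -0.10. Psma3 was at -0.04, and Psma6, at signals from 131.1 to 155.4 near the detection limit, at 0.04 ± 0.163. The Psma7 promoter is shown as that of the alpha subunit farthest from 0. Its CCAAT box is in capitals (bases 55 to 59), and it lies on GRCm38.p6 at chr2:180042415-180042714, minus strand.
Psma7 promoter: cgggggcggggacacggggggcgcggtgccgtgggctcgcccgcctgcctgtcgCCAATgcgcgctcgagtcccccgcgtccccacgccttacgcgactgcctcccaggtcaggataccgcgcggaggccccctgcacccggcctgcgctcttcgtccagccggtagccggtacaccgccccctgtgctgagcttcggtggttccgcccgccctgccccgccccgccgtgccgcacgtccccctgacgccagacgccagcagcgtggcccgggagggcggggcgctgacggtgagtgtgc

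**Figure D2:**
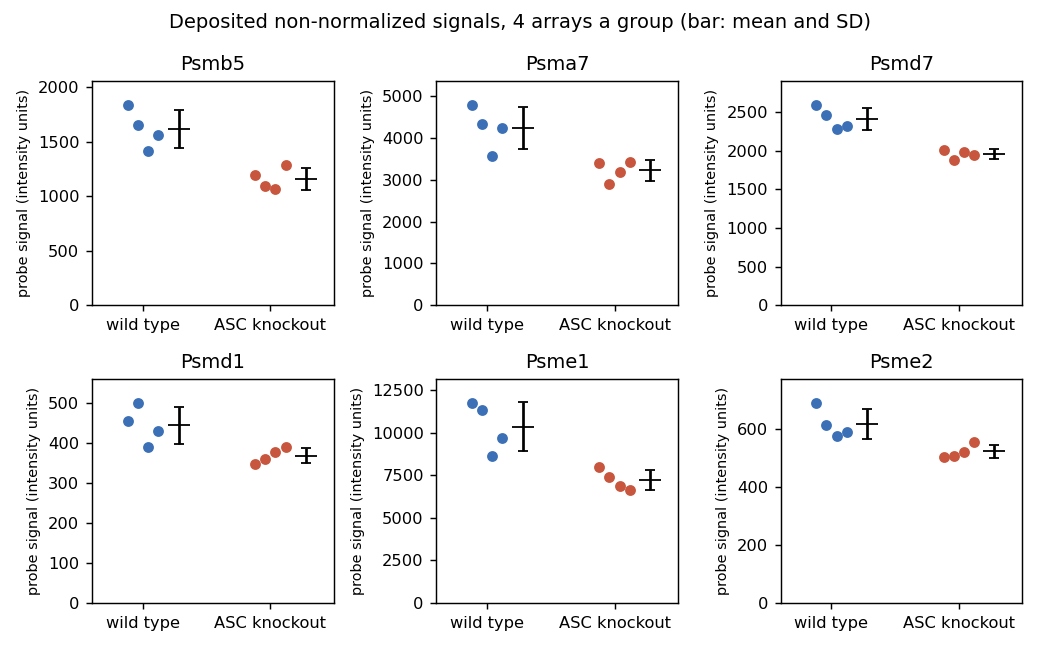
Deposited non-normalized signals of 6 genes on each array (points), with the mean and SD of 4 arrays beside them; the vertical axes start at 0. The 6 genes are among the 8 whose groups did not overlap, so it is not a further result that all 4 knockout arrays lie lower in each panel. Before any normalization, 78.5% of all tested probes had the lower mean signal in the knockout.

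The ATPases of the cap, which unfold substrates, were all 6 below 0, with a median of -0.07, no unadjusted limma p under 0.05, and overlapping groups in each. Psmc5 was at -0.21 ± 0.112, with its second probe at -0.10 ± 0.102, and the first was at -0.13 without knockout replicate 3. Psmc1 was at -0.13 ± 0.0964, with -0.20 without knockout replicate 4 and -0.08 without knockout replicate 2, and the dim Psmc6 at -0.08 ± 0.202, with a range of -0.24 to 0.10 over fits that omitted an array. Psmc2, Psmc3 and Psmc4 were at -0.06, -0.04 and -0.02.

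Among the 13 Psmd genes of the cap, 9 were below 0, with a median of -0.02. Psmd7, the partner of the cap's deubiquitinase in the lid, had signals of 2589, 2460 (wild type 1 and 2), 2285 and 2317 against 2013, 1872, 1985 and 1941 in the knockout. The groups did not overlap, and its log2 difference was -0.17 ± 0.0688 (SE, n = 4 each, limma adjusted p = 0.312). A second, dimmer Psmd7 probe was at -0.28 ± 0.120 with overlapping groups. Psmd1, a scaffold of the cap, had signals of 453.8, 500.5, 390.6 and 430.3 against 347.2, 359.9, 376.6 and 389.4. Its groups were separate by a narrow margin, at -0.24 ± 0.0992 (SE, n = 4 each, limma adjusted p = 0.341).

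No other Psmd probe had an unadjusted limma p under 0.05. Psmd14, the deubiquitinase itself, was at -0.01 ± 0.109 and Psmd4, a ubiquitin receptor, at -0.05 ± 0.0829. Psmd12, a lid subunit, was at -0.13 ± 0.0810, and Psmd2, the other large scaffold, at 0.10 ± 0.106 from dim probes. Psmd8 was at 0.06, Psmd6 and Psmd11 at 0.01 and -0.01, and the chaperones Psmd5 and Psmd10 at -0.02 and -0.03. The dimmer probes of Psmd10 were at -0.16 ± 0.0861 and -0.03 ± 0.102, the dimmer tested probe of Psmd11 at -0.16 ± 0.139 and that of Psmd12 at -0.02 ± 0.162. The chaperone gene Psmd9 had probes of opposite sign, at 0.02 ± 0.155 and -0.22 ± 0.193. Psmd13, at -0.02 ± 0.0834, and the untested Psma1 are the members within 20 Mb of Pycard on chromosome 7.

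All 4 activator genes were below 0. Psme1, which encodes the alpha chain of the interferon-inducible activator, had signals of 11753, 11339.7, 8637 and 9703 in wild type and 7968, 7383, 6839 and 6652 in the knockout. The groups did not overlap, and the log2 difference was -0.36 ± 0.0923 (SE, n = 4 each, 95% interval -0.57 to -0.16), a ratio of 0.778, with a limma adjusted p of 0.120. Its second probe behaved alike, at -0.32 ± 0.0903 with separate groups. Psme2, which encodes the partner chain, had signals of 690.9, 612.7, 577.7 and 589.9 against 504.4, 508.7, 521.1 and 556.7. The groups were again separate, at -0.18 ± 0.0813 (SE, n = 4 each, limma adjusted p = 0.376). The activators that interferon does not induce, Psme3 of the nucleus and Psme4, were at -0.05 ± 0.0840 and -0.02 ± 0.0779 with overlapping groups. Psme3 was at -0.08 without wild type replicate 3, -0.07 without knockout replicate 4, -0.0065 without wild type replicate 1 and -0.0099 without knockout replicate 2. The difference between the interferon-inducible and the other activators was not tested.

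The promoters of Psme1 and Psme2 are shown because these neighbours on chromosome 14 encode the chains of 1 complex. The Psme1 promoter lies on GRCm38.p6 at chr14:55578244-55578543, plus strand, and the match to the interferon response motif, read on the reverse strand, is in capitals (bases 260 to 269). The Psme2 promoter shown, the first of 2, lies at chr14:55591052-55591351, minus strand, and none of the 5 searched motifs is in its letters. The other Psme2 promoter was not searched.
Psme1 promoter: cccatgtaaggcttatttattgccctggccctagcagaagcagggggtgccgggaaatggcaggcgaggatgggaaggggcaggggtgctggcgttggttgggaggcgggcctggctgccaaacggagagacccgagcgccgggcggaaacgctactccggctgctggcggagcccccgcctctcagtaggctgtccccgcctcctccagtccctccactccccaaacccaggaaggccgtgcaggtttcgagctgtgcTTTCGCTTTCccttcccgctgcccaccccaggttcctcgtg
Psme2 promoter: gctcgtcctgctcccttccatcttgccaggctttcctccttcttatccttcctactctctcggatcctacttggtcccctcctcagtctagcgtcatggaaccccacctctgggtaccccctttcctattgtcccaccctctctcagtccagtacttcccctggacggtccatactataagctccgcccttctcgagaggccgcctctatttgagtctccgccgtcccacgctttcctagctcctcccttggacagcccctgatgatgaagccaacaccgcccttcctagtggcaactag

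Promoters of 32 of the 37 genes were searched on both strands for 5 motifs and set beside those of 6420 genes with a tested probe and of all 27025 genes. The ETS letters CCGGAAG occurred in 11 of 32, or 34.4%, against 20.5% and 9.12%. They were in 9 of 17 cap promoters and 2 of 4 activator promoters, and in 0 of 11 core promoters. CCAAT occurred in 37.5%, against 39.8% and 37.9%, among them 6 of 11 core promoters. TGACNNNGC occurred in 6 promoters, or 18.8%, against 14.4% and 12.5%, namely those of Psmb5, Psmb6, Psmc6, Psmd9, Psmd12 and Psme4. The interferon response motif occurred in those of Psmb3, Psmd4, Psmd9 and Psme1, or 12.5%, against 3.29% and 3.49%. TTCNNNGAA, a STAT motif that reads the same on both strands, occurred in that of Psmd2 alone, or 3.12%, against 6.81% and 8.47%. Median GC content was 58.2% in the proteasome promoters, 60.7% in those of genes with a tested probe and 52.7% overall. A match is a description of letters, not of binding.

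By groups that did not overlap, 8 of 36 genes were lower in the knockout and 0 were higher: Psma2, Psma5, Psma7, Psmb5, Psmd1, Psmd7, Psme1 and Psme2. By probe this was 9 of 51, or 17.6%, where all tested probes gave 4.21% lower and 3.91% higher. By class, 4 of 13 core, 2 of 19 cap and 2 of 4 activator genes were among them. Arrays differed within groups as well. Setting each gene against its wild type mean, the median over the 36 genes was 0.06, 0.03, -0.09 and -0.0064 on wild type arrays 1 to 4 and -0.06, -0.10, -0.12 and 0.0068 on knockout arrays 1 to 4. Thus wild type replicate 3 lay among the knockout arrays and knockout replicate 4 among the wild type arrays, and wild type replicate 3 was also the wild type array of lowest mean signal. The part of array signal in these differences was not tested. In the core, all 4 knockout medians lay between -0.12 and -0.07, and wild type replicate 3 at -0.08 lay within that range. The activator median of knockout replicate 4, at -0.03, lay above those of wild type replicates 2 and 3, at -0.05 and -0.04.

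**Figure D3:**
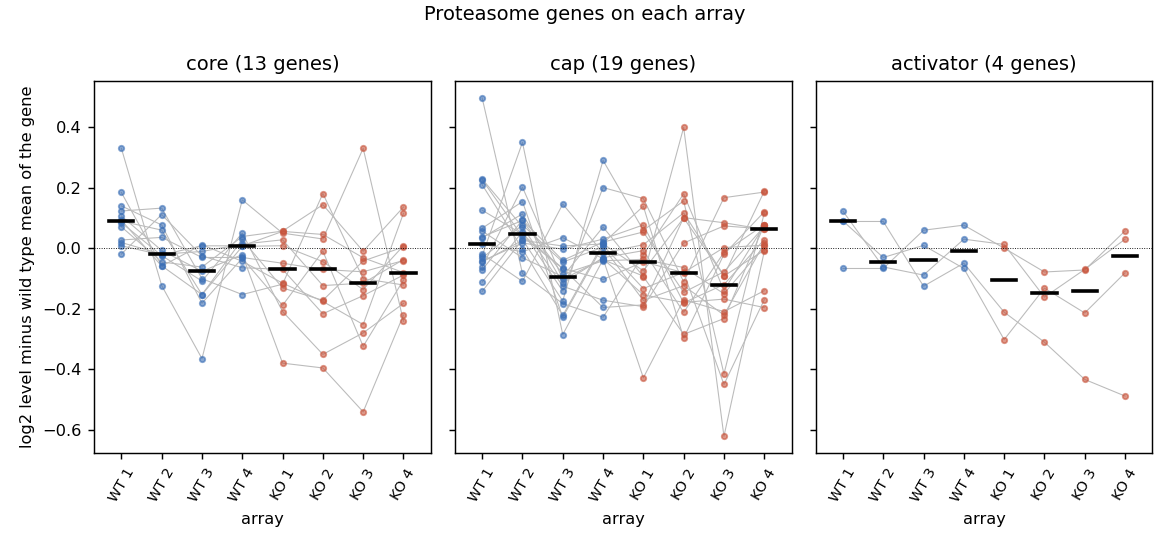
Log2 level of each gene on each array minus the gene's wild type mean (points, joined by gene), by class, with the class median as a black bar. Psmb5 is the lowest core gene on knockout arrays 1 to 3 and Psme1 the lowest activator gene on knockout arrays 2 to 4, while the medians of wild type and knockout arrays overlap in all 3 classes, with wild type replicate 3 low in the core and the cap.

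The inducible catalytic subunits, which replace Psmb5, Psmb6 and Psmb7 in the immunoproteasome, were below 0 as well, and 0 of 3 passed the test. Psmb10 was at -0.40 ± 0.0827 and -0.38 ± 0.0829 at its probes (limma adjusted p = 0.0600 and 0.0793), with separate groups at both. Psmb8 and Psmb9 were at -0.16 ± 0.0906 and -0.15 ± 0.0832 with overlapping groups. For each pair, the log2 level of the inducible probe minus that of the constitutive one was compared between groups over the 4 arrays each, and only its change is read. For Psmb8 minus Psmb5 it changed by 0.22, from -0.25 ± 0.118 to -0.03 ± 0.116 (SD, n = 4 each, two-sided exact permutation p = 0.0571, adjusted over 3 pairs 0.129). For Psmb10 minus Psmb7 it changed by -0.29, from 1.00 ± 0.241 to 0.71 ± 0.0886 (SD, n = 4 each, exact permutation p = 0.0857, adjusted 0.129). For Psmb9 minus Psmb6 it changed by -0.05 (exact permutation p = 0.714, adjusted 0.714, n = 4 each). The smallest p of this design is 0.0286, and a single pair cannot pass after adjustment over 3, so no pair was shown to shift.

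**Figure D4:**
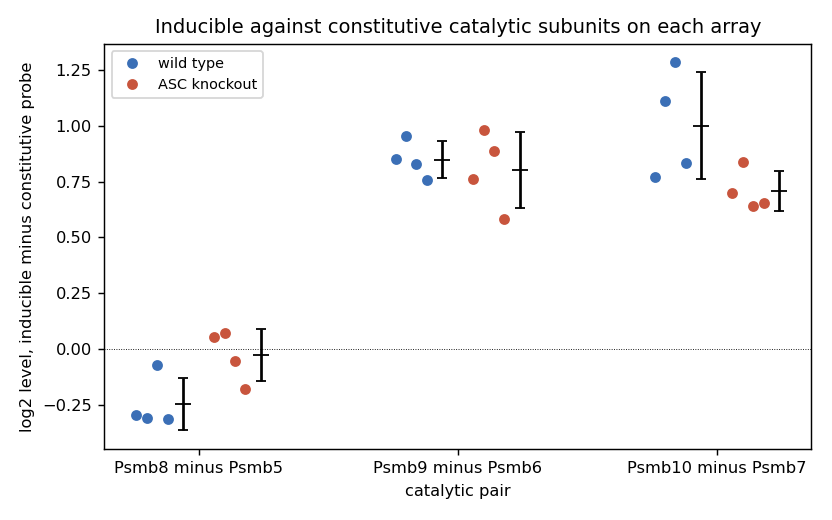
Log2 level of the inducible minus the constitutive catalytic probe on each array (points), with the mean and SD of 4 arrays a group, for 3 pairs. Psmb8 minus Psmb5 lies higher in the knockout except for wild type replicate 3 at -0.07, and Psmb10 minus Psmb7 lies lower, with overlap in every pair.

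Other genes of the pathway gave 0 called genes in either direction. Of the assembly chaperones, 3 of 4 were below 0. Psmg3, a chaperone of core assembly, was at -0.36 ± 0.0923 (limma adjusted p = 0.119) with separate groups, Psmg2 at -0.15 ± 0.0689, also separate, and Pomp, the maturation factor of the core, at 0.04 ± 0.0726. Among associated and inhibitory proteins, 3 of 5 were below 0, with Usp14, a deubiquitinase of the cap, at 0.04 ± 0.141. Shuttle factors and the segregase Vcp had 3 of 6 below 0, with Vcp at -0.04 ± 0.0857.

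Regulators of proteasome genes had 1 of 4 below 0. Nfe2l1, the factor that raises proteasome transcription when proteasomes are inhibited, was at 0.11 ± 0.0912. Nfe2l2 was near the detection limit, at 0.03 ± 0.130, and Nfe2l3, Maff and Mafk were not detected on any array. Of 6 genes of peptidases that trim peptides after the proteasome, 4 were tested. All 4 were below 0, with a median of -0.20, where 51.7% of all tested probes were below 0. Tpp2 was at -0.0011 ± 0.102, Blmh at -0.17 ± 0.0950 and Erap1 at -0.24 ± 0.152, with overlapping groups. Thop1, a cytosolic peptidase, was at -0.31 ± 0.0756 (limma adjusted p = 0.114) with separate groups. Of the ubiquitin genes and activating enzymes, 1 had a probe, Uba6, and it was not detected. Psmc3ip, a meiotic recombination factor gene, was at -0.17 ± 0.123, and the probes of Psme3ip1, a partner of the nuclear activator, were at 0.03 each.

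Some genes listed as markers of other cells differed between genotypes. Whether the share of those cells differed was not tested. Of the 3 CD4 T cell markers, Foxp3 was the 1 tested and was higher in the knockout by 1.09 ± 0.138 (limma adjusted p = 0.00576). Cd40lg was not detected, and Cd4 was detected on too few arrays to be tested. The summed signal of the list ran from 409.9 to 427.5 in wild type and from 460.5 to 486 in the knockout. That sum includes Foxp3, whose signal averaged 166.3 in wild type and 223.85 in the knockout, so it is not separate from the Foxp3 result. Of 4 neutrophil markers, 3 were tested and above 0, with S100a9 at 1.08 ± 0.329 and no call, and their sums were 791.9 to 1078 and 882.3 to 1866. The CD8 T cell list, with 5 of 6 genes tested, summed to 68875 to 80955 and 65020 to 67066, without overlap. All sums given here are of non-normalized signals, and the mean array signal of the knockout was 92.5% of that of wild type. Among the 2818 brightest tested probes, 88.0% had the lower knockout signal. After normalization the groups of each tested gene of the CD8 T cell list overlapped, and its median log2 difference was -0.03. Whether its sums differed beyond the array signal was not tested. The sums of the remaining lists overlapped between groups, with 0 genes called. Of 4 B cell markers 2 were tested, of 3 myeloid markers 1, of 4 NK markers 3, and of 4 erythroid and platelet markers 1, which was Hba-a1 at 0.97 ± 0.300. B cell markers summed to 582.7 to 634.8 and 585 to 669.5 with Cd79a and Ms4a1 not detected, and myeloid markers to 557.6 to 713.7 and 498.9 to 615.4 with Itgam not detected. NK markers summed to 878.7 to 1147 and 953 to 1128 without Ncr1, and erythroid and platelet markers to 521.5 to 618.3 and 546.7 to 708.4 without Alas2, Pf4 and Ppbp. Their part in the proteasome differences was not tested.

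The class medians kept their sign under each scaling tried but not their size. With each array scaled to the median of all probes, the medians were -0.18 in the core, -0.14 in the cap and -0.20 among activators, and the median of all tested probes itself moved to -0.08. With scaling to the probes detected on all 8 arrays they were -0.10, -0.06 and -0.12, and that of all tested probes was -0.00056. The order of core and cap rests on small differences, and single arrays could bring them level. Without knockout replicate 4 the cap, at -0.0679, lay barely below the core, at -0.0676. Without wild type replicate 1 the cap was at -0.0496 and the core at -0.0500, in the order of the main fit.

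**Figure D5:**
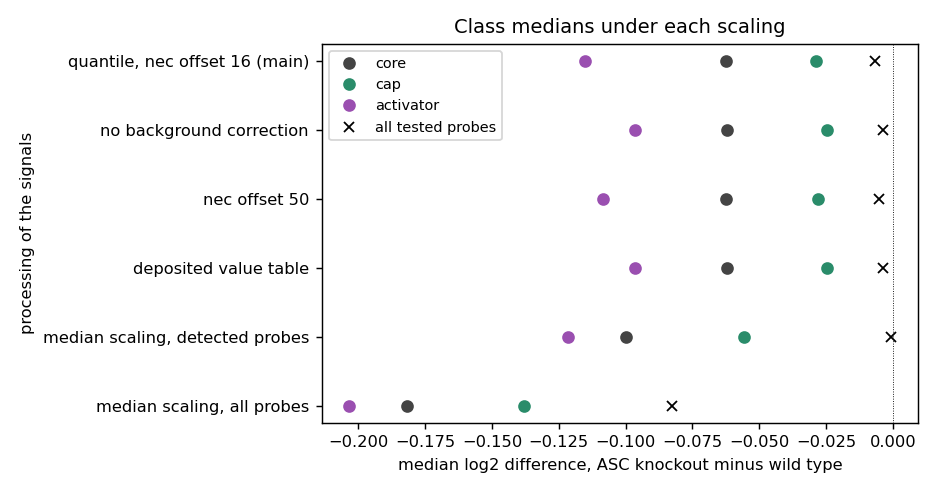
Median log2 difference of core, cap and activator genes and of all tested probes (crosses) under 6 ways of processing the signals. Of these, the deposited value table repeats the processing without background correction. The order of the medians was activator, core, cap, all tested probes from lowest to highest in each of these 6, and scaling to the median of all probes moved all of them lower.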

How the data were processed

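The intensities deposited by the authors are non-normalized probe signals of 8 arrays, per the file headers, each with a deposited detection p-value; GenomeStudio, version not given, was used per the submitters' processing notes. The authors' deposited value table holds log2 values. Set against the signals, it matched uncorrected log2 signals after quantile normalization and subtraction of the probe median (largest deviation 0.000589), so it holds no absolute level.

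Signals were background-corrected with limma's nec (detection p-values, offset 16), then quantile-normalized as log2 values. The test took probes detected (p under 0.05) on 4 or more of the 8 arrays (11270, or 43.9%) and used lmFit and eBayes, knockout minus wild type, and Benjamini-Hochberg adjustment over all of them at 0.05. R 4.3.3 and limma 3.58.1 were used. The number of arrays limits the precision; the median SE of a proteasome gene was 0.0898.

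Each gene stands at its brightest tested probe. Named were the 3 largest differences in each of 5 families, the catalytic subunits, Psme1, Psme2 and genes whose probes differ in sign; the other members were given by value after their values were seen. Members and lists were chosen with earlier results of these data known. Of all probes, 23978 had 1 symbol, 0 several and 1719 none; 23962 were matched by Entrez identifier to RefSeq genes of GRCm38.p6, which served for names, chromosomes and neighbours. Promoters are RefSeq's on GRCm38.p6, matched by symbol, the first where a gene has more than 1; protein sequences were not used here. Arrays of 11270 probes were simulated with noise independent between probes and without array-wide shifts, although the real arrays differed within groups. On the simulated arrays the fit called 90% of probes changed by a log2 difference of 1 and 59% of those changed by 0.5, with 0 of wrong sign. Both sizes are larger than any proteasome difference here, of which the largest was -0.38, so these rates do not hold for differences of the size seen. Alternatives changed the background, scaling, filter, variance model, array weights, probe choice, source and replicates.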

Additional observations from a re-analysis of the deposited data

Results flagged for a closer look

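An array far from its group was looked for in 78 groups of 4 values (36 genes and 3 catalytic pairs in each genotype) by Dixon's ratio, the distance from an extreme value to its neighbour over the whole range, at its 95% critical value. This was met 6 times, where chance gives about 1 in 20, or 3.9.

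Knockout replicate 2 was above its group for Psma3, at a log2 level of 13.41 against 13.11 to 13.13, and below it for Psmd2, at 5.38 against 5.66 to 5.68. Knockout replicate 3 was low for Psmd5, at 5.77 against 6.24 to 6.34, and knockout replicate 1 for Psmd6, at 6.75 against 6.997 to 7.036. Wild type replicate 2 was low for Psmb2, at 13.03, where the others were at the same value of 13.06. For Psmb8 minus Psmb5, wild type replicate 3 was at -0.071 against -0.31 to -0.30 on the other wild type arrays, and without it the change was 0.28.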

How the results depend on the processing

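No proteasome gene was called higher in any alternative. The deposited table repeats the processing without background correction and is not independent of it. The 4 alternatives that called Psmb5 and Psme1 lower (2 genes) gave log2 differences of -0.35 and -0.36 without background correction and in the deposited table, -0.37 and -0.36 with offset 50, and -0.38 and -0.36 with a trended, robust variance. Over all probes these called 121 higher and 103 lower without correction and in the table, 104 and 82 with offset 50, and 126 and 109 with the trended variance, against 49 and 46. Without a detection filter 31 were higher. Leaving out 1 array gave 12 to 38 higher and 13 to 34 lower. Scaling to the median of all probes moved the median to -0.17 over all proteasome genes, -0.18 in the core, -0.14 in the cap and -0.20 among activators, and 34 of 36 genes were then below 0. It also moved all tested probes, to a median of -0.08, with 12.3% of them lower at an unadjusted limma p under 0.05 against 6.39% in the main fit. With 1 array left out under quantile normalization, 25 to 33 of the proteasome genes were below 0. The change of Psmb9 minus Psmb6 ran from -0.11 to 0.02 and turned sign without knockout replicate 4 (0.025). Psmc6 turned sign without wild type replicate 2 (0.03) or knockout replicate 3 (0.10), in a range of -0.24 to 0.10. Psmd9 turned sign under scaling to all probes (-0.033), with array weights (-0.0048) and without wild type replicate 2 (-0.0047), 3 (-0.037) or 4 or knockout replicate 2 (-0.030), in a range of -0.053 to 0.19. The causes were not tested. Of 288 alternative values of named genes, 272 kept sign and side of the threshold, 8 newly passed and 8 turned sign.

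Replicate numbers are shared between genotypes, but same-numbered arrays deviated together weakly, with correlations of 0.01, 0.11, 0.13 and -0.10 across probes, so the numbers were not taken as pairs. With replicate number as a block, 29 probes were higher and 22 lower, and 0 proteasome genes were called. At an unadjusted limma p under 0.05, 8 of 51 proteasome probes were then lower and 0 higher, where 6.50% of all tested probes were lower. Signal near background limits Psma6, Psmc6, Psmd2, Psmd5, Psmd6 and Psmd9.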
